A study of Drosophila melanogaster with 24 samples.

Results

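The comparison described here sets fruit flies (Drosophila melanogaster) whose RNAi transgene was switched on by the drug RU486 against flies without the drug, all on the AL diet. It uses 12 of the 24 arrays of the series: the 6 AL pools with RU486 and the 6 AL pools without RU486, chosen by their sample titles. Each array measured the RNA of 1 pool of about 35 whole female flies aged 13 days, after amplification to cDNA and labelling with Cy3. The other 12 arrays hold flies under dietary restriction (DR, for 10 days per the labels), 6 pools with and 6 without RU486.

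All flies, with or without the drug, had the genotype +/+; Act5c-GS-Gal4/+; P{GD3482}v8105 /+, that is, 1 copy each of a driver under the control of the actin promoter Act5c and of an RNAi insertion. The series text calls AL flies without RU486 the wild type control, although their labelled genotype carries both transgenes. AL is not spelled out in the labels and is kept here as the name of the diet. The labels name no group given RU486 without the transgenes, so a change caused by RU486 itself and one caused by the induced RNAi cannot be told apart. The labels describe each sample as a pool of its own and do not say whether pools came from separate cultures, so p-values measure the spread between pools. Unless stated otherwise, limma p-values take that spread from all 4 groups, DR pools included, and not from the AL pools alone.

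The GeneSwitch (GS) driver is a form of the yeast activator Gal4 that turns on its target genes only when it binds RU486, also known as mifepristone. The target here is a long hairpin RNA, which Dicer-2 cuts into short RNAs that guide Argonaute 2 to messenger RNAs of matching sequence, and these are then cut. From general knowledge of this collection of insertions, and not from the labels, the insertion is directed at ACC, acetyl-CoA carboxylase. This enzyme makes malonyl-CoA, the building block of fatty acid synthesis and an inhibitor of fatty acid entry into mitochondria. No transcript on the arrays was identified here as that of ACC, so knockdown of the target was not checked.

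The arrays carried probes for 16637 transcripts, 16617 of them with 8 probes each, and the value of a transcript is the mean log2 brightness of its probes. The median probe value of an array was 9.39 to 9.47 with RU486 and 9.41 to 9.47 without RU486, and the number of arrays limits the precision. The background of an array was taken as the 95th percentile of 511 sets of 8 random control probes. The AL arrays with RU486 had 13290 ± 203 transcripts above it, and those without RU486 had 13392 ± 242 (SD, n = 6 each). This difference of -102 transcripts was smaller than the spread (exact two-sided permutation test over 924 splits, p = 0.450, adjusted p = 0.522 over 2 tests). Median brightness of the random probes averaged 7.15 ± 0.03 log2 with RU486 and 7.17 ± 0.03 log2 without (SD, n = 6 each; difference -0.01, exact permutation p = 0.522).

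Among the 12 AL arrays, 1 stood apart from its group, as was already known from earlier results of these data. Transcript values in AL pool 1 with RU486 deviated from their group mean with an SD of 0.365 (log2). The other 5 pools with RU486 had SDs of 0.110 to 0.140, and the 6 pools without RU486 had 0.101 to 0.140. Its correlation with the mean of its group's other pools was 0.971 over all transcripts, against 0.996 to 0.997 for the other 5. In this pool 528 transcripts (3.17%) lay at least 2-fold from the mean of the other 5 pools, 248 higher and 280 lower, while each of the other 5 pools had between 2 and 8 such transcripts. Of the 528, 521 were above background on all 12 AL arrays, and 477 of the 527 with 8 probes had all 8 to the same side. The last 2 probes of a transcript, in the order of the numbers in their identifiers, exceeded the first 2 by 0.40 log2 on average in this pool, against 0.29 to 0.32 in the other 5 and 0.29 to 0.33 in the pools without RU486. The drug differences on AL are therefore given with this pool and without it.

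**Figure D1:**
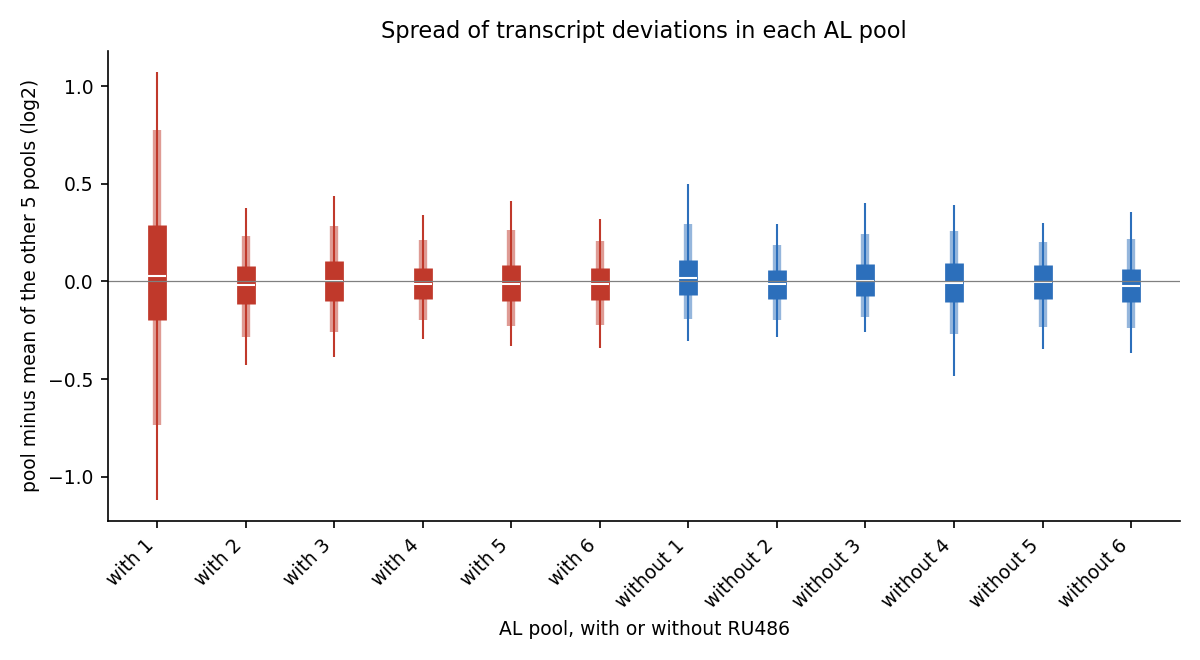
Spread of transcript values in each AL pool. The vertical axis is the pool minus the mean of the other 5 pools of its group (log2), over all transcripts. The thick bar spans the 25th to 75th percentiles, the pale bar the 5th to 95th, the thin line the 1st to 99th, and the white mark is the median. Pool 1 with RU486 spreads wider than the 11 other pools.

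The transcripts carry FlyBase transcript numbers, and the files do not pair these with gene names. A table of RefSeq genes (assembly Release 6) named 16 transcripts with a single symbol and 28 with more than 1, and left 16593 without a name. None of the 16 was a member of the gene lists drawn up for lipid metabolism, insulin signalling, drug response, stress response or RNAi, or of the marker lists for ovary, fat body, muscle, gut, eye or the male reproductive tract. Fatp1, a gene of fatty acid transport, is among the 16 but was not on those lists. No pathway could therefore be counted, and the labelled whole female fly was not checked against its markers.

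Few transcripts passed the threshold for a difference with RU486 on the AL diet. With all arrays, 104 of 16637 transcripts passed an adjusted p of 0.05 (limma, Benjamini-Hochberg over all transcripts), which is 0.625%. Of these, 48 (0.289% of those tested) rose and 56 (0.337%) fell. Without pool 1 of the RU486 group, 116 transcripts (0.697%) passed, 50 higher and 66 lower. Between these sets, 91 transcripts passed in both, 13 only with pool 1 and 25 only without it, and all 13 and all 25 had the same sign in the other fit. The transcripts just inside and just outside the threshold had adjusted p-values of 0.0494 and 0.0506. Unadjusted p-values under 0.05 were found for 1406 transcripts (8.45%).

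Most of the changes were small. The 48 transcripts that rose did so by a median of 0.44 log2, between 0.24 and 1.29, and 13 of them reached 1.5-fold and 4 reached 2-fold. The 56 that fell had a median of -0.52 log2, between -1.78 and -0.24, with 20 reaching 1.5-fold and 3 reaching 2-fold. Over all transcripts the median difference was -0.003 log2 with an SD of 0.122, and 96.0% of transcripts differed by less than 0.25 log2. Without pool 1 that SD was 0.110, and the medians over the transcripts that rose and fell were 0.43 and -0.47. RNA came from whole flies, so fewer cells of a type and less RNA per cell cannot be told apart.

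The groups separated for most of the called transcripts. In 40 of the 48 that rose, every pool with RU486 lay above every pool without RU486, and in 48 of the 56 that fell, every pool with RU486 lay below. Over all transcripts the groups did not overlap for 231 (1.39%), of which 103 were higher and 128 lower with RU486. Pool 1 by itself lay on the called side of the mean without RU486 for all 48 higher transcripts and for 55 of the 56 lower ones. Every one of the other 5 pools did so for all 48 and all 56. These positions enter the calls themselves and describe them.

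The called transcripts lay mostly in the middle of the brightness range. When all transcripts were split into 10 equal bins by their mean level on AL, from dim to bright, the bins held 0, 3, 13, 21, 25, 15, 12, 4, 6 and 5 of the calls. The SD of the RU486 difference was 0.063 log2 in the dimmest bin, 0.161 in the fifth and 0.105 in the brightest. Of the 48 transcripts that rose, 41 were above background on all 12 AL arrays, and of the 56 that fell, 43 were.

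**Figure D2:**
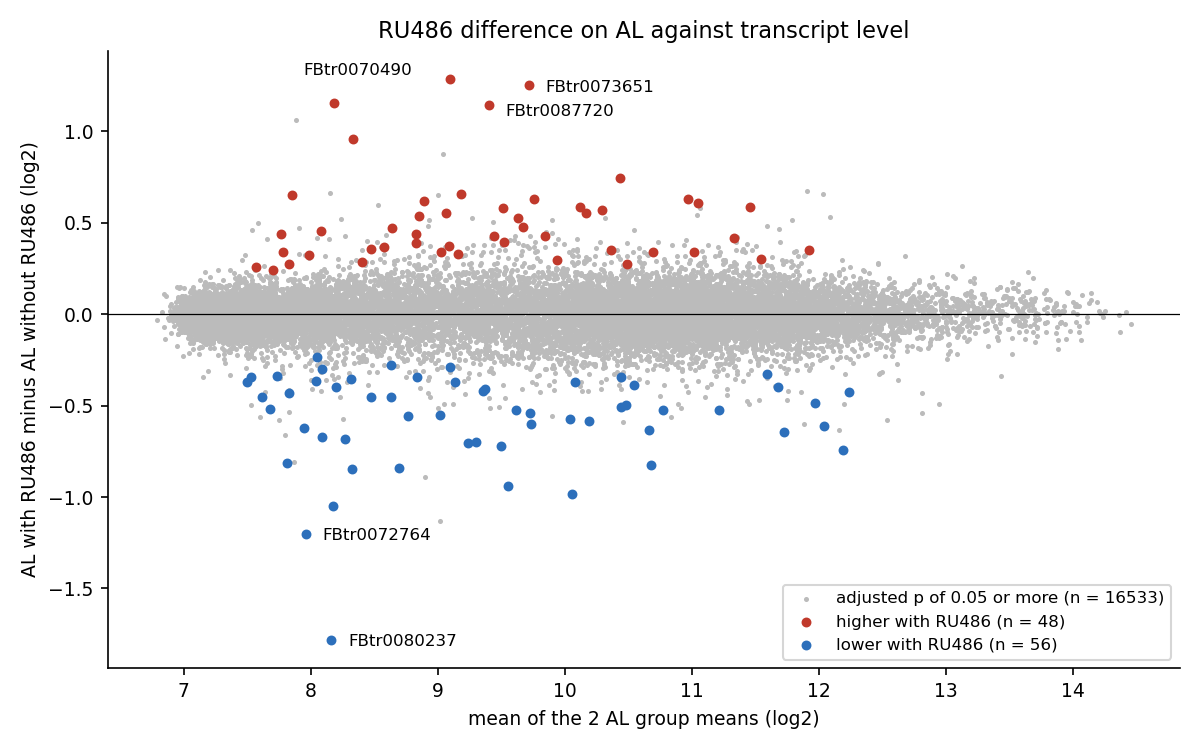
Difference between AL pools with and without RU486 for every transcript (vertical axis, log2) against the mean of both group means (horizontal axis, log2). Red points are the 48 that rose, blue points the 56 that fell and grey points the other 16533; labelled points are the 5 transcripts described by identifier. Most coloured points lie within 1 log2 unit of 0.

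A subset of the falling transcripts was not above background with the drug. Of the 56, 6 were above background on 0 of 6 arrays with RU486, and 5 of these were above it on all 6 arrays without RU486. The whole table held 9 transcripts with that pattern and 0 with the opposite one, on all 6 arrays with RU486 and none without. The transcripts FBtr0080237 and FBtr0072764, described next, are 2 of the 5.

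FBtr0080237 had the largest fall of the 56. Its values were 7.11, 7.47, 7.20, 7.22, 7.31 and 7.31 log2 in AL pools 1 to 6 with RU486, against 9.27, 8.95, 9.24, 9.08, 9.04 and 8.73 log2 in AL pools 1 to 6 without RU486. None of the 6 pools with the drug was above background, all 6 without it were, and the groups were far from overlapping. The fitted difference was -1.78 ± 0.16 log2 (SE; limma adjusted p = 1.82e-07), and -1.75 ± 0.16 without pool 1 (adjusted p = 4.15e-07). Since the group with RU486 has only an upper bound, the transcript was at least 2.78-fold lower with RU486. For that bound, each array with RU486 enters at its background or at its measured value, whichever is higher, and the mean of these is set against the mean without RU486. This bound and those given below are set on group means and leave out sampling error.

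The fall of FBtr0080237 sat in 5 of its 8 probes. Probes 4 to 8 averaged between 7.33 and 7.55 log2 with RU486 and between 9.87 and 10.34 log2 without, differences of -2.49 to -2.83. Probes 1 to 3 were dim in both groups, at 6.89 to 7.17 log2 with RU486 and 6.87 to 7.62 log2 without. The mean over 8 probes therefore understates the difference seen on the bright ones, and with the median over probes it was -2.63 log2.

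FBtr0072764 showed a similar pattern at a smaller size. Its values were 7.18, 7.49, 7.29, 7.53, 7.27 and 7.42 log2 in AL pools 1 to 6 with RU486, against 9.06, 8.61, 8.62, 8.55, 8.27 and 8.29 log2 in those without RU486. No pool with the drug was above background and every pool without it was, with no overlap. The difference was -1.20 ± 0.20 log2 (SE; limma adjusted p = 0.00126), at least 1.98-fold lower with RU486, and -1.17 ± 0.21 without pool 1 (adjusted p = 0.00286). With the median over probes in place of the mean the fall was smaller, at -0.83 log2 (adjusted p = 0.00884), so the bound of 1.98-fold holds for the mean over probes. Probes 2 to 4 differed by -2.16 to -2.51 log2 and probe 1 by -1.04. Probes 5 to 8, which averaged 6.96 to 7.61 log2 with RU486 and 7.45 to 7.88 log2 without, differed by -0.28 to -0.60.

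FBtr0070490 had the largest rise and the smallest adjusted p of the comparison. It stood at 9.83, 9.71, 9.74, 9.57, 9.82 and 9.75 log2 in AL pools 1 to 6 with RU486, against 8.37, 8.47, 8.46, 8.43, 8.49 and 8.48 log2 in those without RU486. The lowest pool with the drug was more than 1 log2 unit above the highest pool without it, and pools within each group were close to each other. The difference was 1.29 ± 0.07 log2 (SE), a 2.44-fold rise (limma adjusted p = 1.71e-11), and 1.27 ± 0.07 without pool 1 (adjusted p = 6.46e-11). Of its 8 probes, 7 differed by 0.91 to 1.80 log2, and probe 1, which was dim at 7.58 log2 with RU486 and 7.34 log2 without, by 0.25.

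FBtr0073651 rose by a similar amount from more variable levels. It had 10.59, 10.01, 10.63, 11.09, 9.88 and 9.85 log2 in AL pools 1 to 6 with RU486, against 9.16, 9.06, 9.24, 9.76, 8.61 and 8.70 log2 in those without RU486. The groups did not overlap, but the lowest pool with the drug was only just above the highest without it. The rise was 1.25 ± 0.18 log2 (SE), or 2.38-fold (limma adjusted p = 0.000217), and 1.20 ± 0.18 without pool 1 (adjusted p = 0.000463). These SEs and p-values take their spread from all 4 groups. The transcript had SDs of 0.51 and 0.41 log2 on AL with and without RU486, against 0.14 and 0.07 on DR. In the 12 AL arrays alone the limma adjusted p was 0.0192. All 8 probes took part, with differences of 1.16 to 1.42 log2.

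FBtr0087720 was 1 of the 2 largest rises under the naming rule given below once pool 1 was left out. With all arrays it came just behind FBtr0081372, which rose by 1.16 log2 and is not described further. The values of FBtr0087720 were 9.61, 9.63, 10.22, 10.11, 10.35 and 9.90 log2 in AL pools 1 to 6 with RU486, against 8.38, 9.17, 8.96, 8.49, 9.06 and 8.91 log2 in those without RU486. Every pool with the drug was above every pool without it. Without pool 1 the rise was 1.21 ± 0.18 log2 (SE), or 2.32-fold (limma adjusted p = 0.000310), and with all arrays 1.14 ± 0.18, or 2.21-fold (adjusted p = 0.000543). Its 8 probes differed by 0.67 to 1.40 log2.

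**Figure D3:**
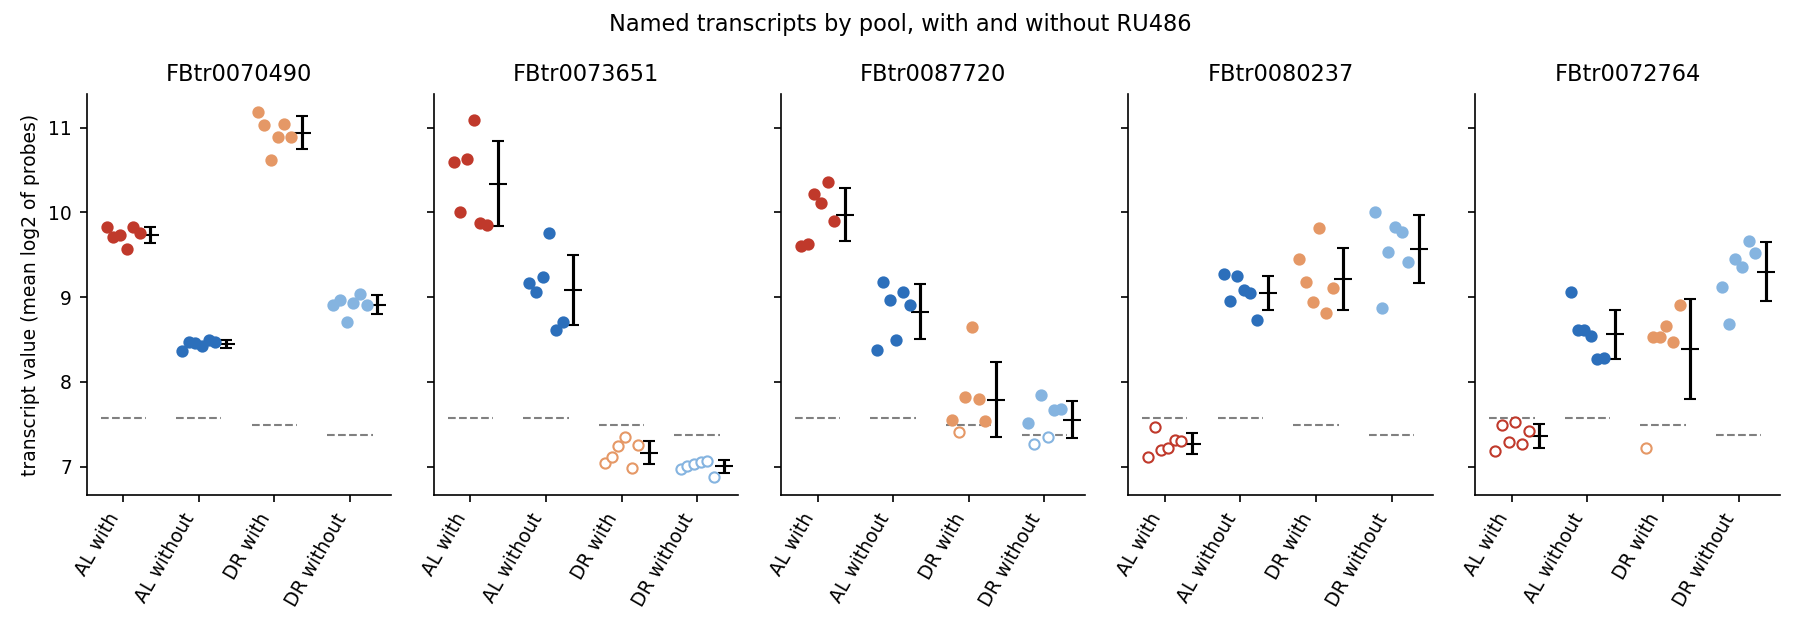
Values of the 5 transcripts in every pool (vertical axis, mean log2 of probes), by diet and drug. Filled points are above the array's background and open points are not; black marks are the mean ± SD of 6 pools and grey dashes the mean background of the group. On AL the pools with RU486 lie wholly above those without for the first 3 transcripts and wholly below for the last 2.

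**Figure D4:**
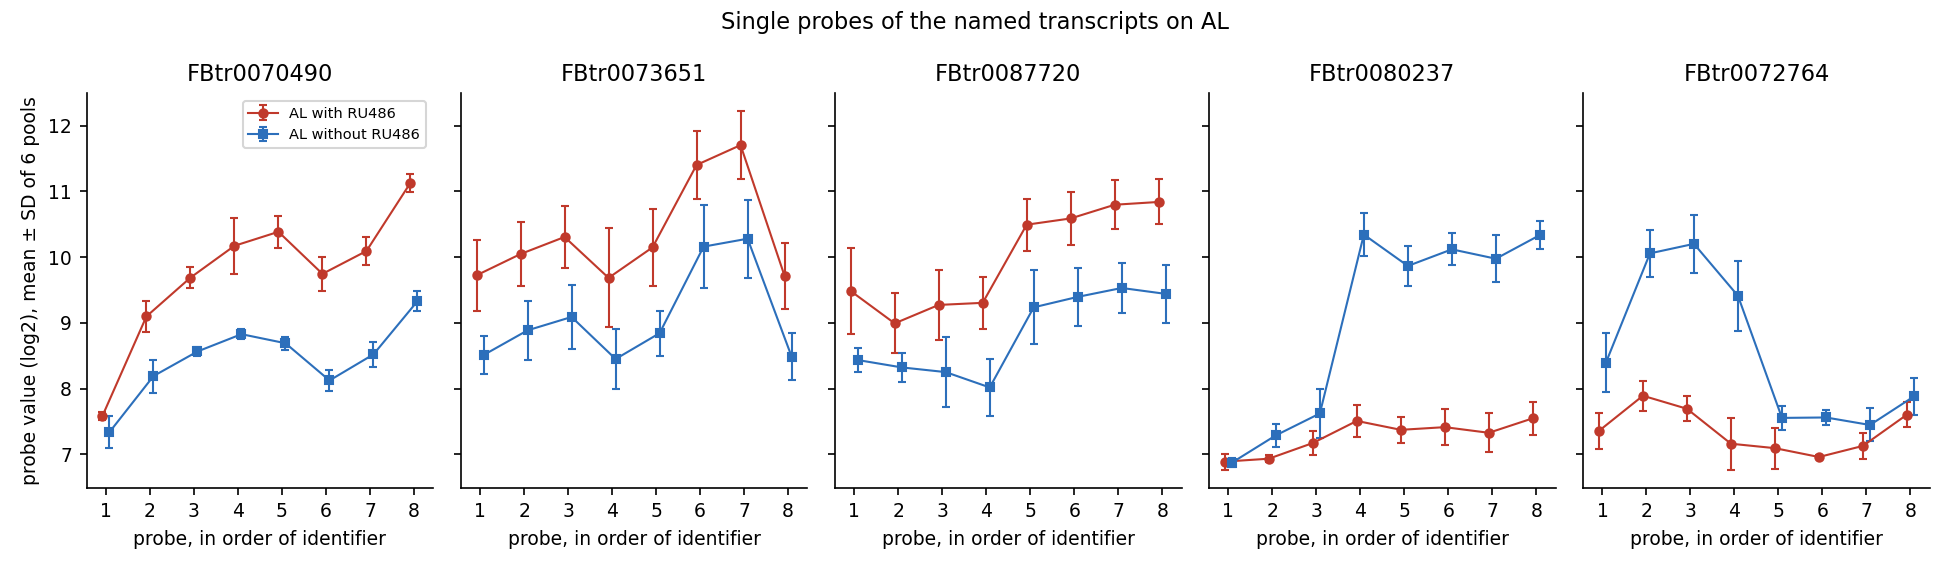
Single probes of the 5 transcripts on AL (horizontal axis, probe in order of the number in its identifier; vertical axis, log2). Points are means of 6 pools and bars the SD. The fall of FBtr0080237 is largest in probes 4 to 8. That of FBtr0072764 is largest in probes 2 to 4, with smaller falls in its other probes. All 8 probes of FBtr0073651 lie higher with RU486.

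Single probes gave the same direction as transcript means for nearly all calls. All 8 probes moved the same way in 47 of the 48 transcripts that rose and in 49 of the 56 that fell, while over all transcripts with 8 probes this held for 10.4%. The probes of a transcript share the RNA of the same pools. A call rests on the mean of these same probes, so their shared direction describes the calls and is no separate test of them. Fitted one by one, 264 of 132999 probes (0.198%) passed an adjusted p of 0.05 (limma), 108 higher and 156 lower. They belonged to 127 transcripts, 50 of which had 2 or more such probes, and 74 of the 104 called transcripts held at least 1.

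The 16 transcripts with a gene symbol were picked by the lookup and form no pathway. Each is 1 transcript of its gene, and any other transcripts of these genes could not be looked up. None of the 16 passed the threshold on AL in limma, with or without pool 1, where 0.625% and 0.697% of all transcripts did. In each fit 1 of the 16 had an unadjusted p under 0.05, against 8.45% and 8.47% of all transcripts. The groups overlapped for all 16, and they did not overlap for 1.39% of all transcripts. Their differences lay between -0.12 and 0.18 log2 with a median of 0.03 over all arrays, and between -0.13 and 0.11 with a median of 0.005 without pool 1. The sign turned without pool 1 for 6 of the 16. On all 12 AL arrays, 15 of them were above background.

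Fatp1 encodes a fatty acid transport protein. Its values were 10.39, 10.36, 10.52, 10.64, 10.39 and 10.43 log2 in AL pools 1 to 6 with RU486, against 10.56, 10.49, 10.73, 10.29, 10.59 and 10.37 log2 in those without RU486. The pools of both groups were interleaved, and the difference was -0.05 ± 0.08 log2 (SE; limma adjusted p = 0.909), and -0.03 without pool 1. CG16974 had the lowest unadjusted p. It averaged 11.70 ± 0.04 log2 with RU486 and 11.83 ± 0.11 log2 without (SD, n = 6 each), a difference of -0.12 with a limma adjusted p of 0.499, and -0.13 without pool 1 (adjusted p = 0.451).

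Of the 16, 4 are known to act on chromatin, and they were grouped here after the lookup. HDAC3, a histone deacetylase, averaged 10.70 ± 0.10 log2 with RU486 and 10.73 ± 0.12 log2 without (SD, n = 6 each; difference -0.03, and -0.04 without pool 1). kis, a chromatin remodeller of the CHD family, averaged 12.46 ± 0.15 log2 with RU486 and 12.46 ± 0.05 log2 without. Its mean with RU486 was 12.40 ± 0.04 log2 without pool 1 (SD, n = 5), a difference of -0.06 that did not pass the threshold (limma adjusted p = 0.800). SuUR, which restrains replication of heterochromatin in polytene cells, averaged 11.51 ± 0.15 log2 with RU486 and 11.47 ± 0.15 log2 without, a difference of 0.04 that became -0.003 without pool 1. For His4r, a replacement histone H4, the mean was 13.59 ± 0.29 log2 with RU486 and 13.60 ± 0.13 log2 without. Its difference of -0.01 became 0.11 without pool 1, where this transcript was at 13.02 against 13.63 to 13.75 in the other 5 pools.

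Wdr24 and mio encode subunits of the GATOR2 complex, which acts upstream of TOR in amino acid sensing. Wdr24 averaged 10.21 ± 0.27 log2 with RU486 and 10.17 ± 0.13 log2 without (SD, n = 6 each), and mio 9.79 ± 0.23 log2 with RU486 and 9.72 ± 0.12 log2 without. The differences of 0.04 and 0.07 turned to -0.06 and -0.02 without pool 1, which held the highest value of both with RU486. Neither passed the threshold in either fit.

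Among the 16, the transcripts of structural, transport and protein turnover genes did not pass the threshold either. alpha-Spec, the alpha subunit of spectrin in the membrane skeleton, averaged 10.69 ± 0.21 log2 with RU486 and 10.64 ± 0.15 log2 without (SD, n = 6 each), and its difference of 0.05 became -0.03 without pool 1. LanA, a laminin chain of basement membranes, averaged 10.68 ± 0.16 log2 with RU486 and 10.71 ± 0.15 log2 without, and its difference of -0.03 became 0.01 without pool 1. Uba1, the enzyme that activates ubiquitin, averaged 13.19 ± 0.10 log2 with RU486 and 13.15 ± 0.11 log2 without, a difference of 0.04, and of 0.08 without pool 1. rdx, an adaptor of a Cullin-3 ubiquitin ligase, averaged 13.86 ± 0.26 log2 with RU486 and 13.83 ± 0.21 log2 without, and its difference of 0.02 became 0.11 without pool 1. For NaPi-III, a phosphate transporter by name, the means were 12.18 ± 0.21 log2 with RU486 and 12.16 ± 0.12 log2 without, and the difference of 0.02 became 0.10 without pool 1.

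For fend the difference rested on 1 pool. It had 11.73, 10.91, 10.58, 10.85, 10.66 and 10.88 log2 in AL pools 1 to 6 with RU486, against 10.72, 10.87, 10.60, 10.96, 10.66 and 10.71 log2 in those without RU486. The difference of 0.18 ± 0.15 log2 (SE; limma adjusted p = 0.767), the highest of the 16, became 0.02 without pool 1 (adjusted p = 0.984). sle averaged 12.46 ± 0.16 log2 with RU486 and 12.36 ± 0.06 log2 without (SD, n = 6 each), a difference of 0.09 that became 0.03 without pool 1. CG31178 was above background on none of the 12 AL arrays. Pool 1 was the highest or the lowest of the 6 pools with RU486 for 14 of these 16 transcripts, 8 times the highest and 6 times the lowest.

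The same drug contrast was measured on DR in 12 other arrays, so the AL and DR differences share no array, only the estimate of the spread. On DR, 2284 transcripts (13.7%) passed the threshold in limma, 990 (5.95%) higher and 1294 (7.78%) lower with RU486. These counts include DR pool 3 with RU486, which also stood apart. Its SD from the group mean was 0.228 log2, against 0.119 to 0.159 in the other pools of that group. In it, 201 transcripts lay at least 2-fold below the mean of those pools and 3 lay above. Of the 48 transcripts that rose on AL, 30 also had a positive difference on DR, with a median of 0.07 log2, and 10 passed there in that direction and 1 in the other. Of the 56 that fell on AL, 43 had a negative difference on DR, with a median of -0.13 log2, and 18 passed there in that direction and 3 in the other. Over all transcripts the directions on AL and DR were the same for 44.1%, and the median difference on DR was 0.005 log2. The difference between the AL and DR effects passed the threshold for 1084 transcripts (6.52%). Among the 16 transcripts with a symbol, HDAC3 (0.29 log2), LanA (-0.28) and alpha-Spec (-0.46) passed on DR, and the rest did not. Their limma adjusted p-values on DR were 0.00913, 0.0211 and 0.0136.

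**Figure D5:**
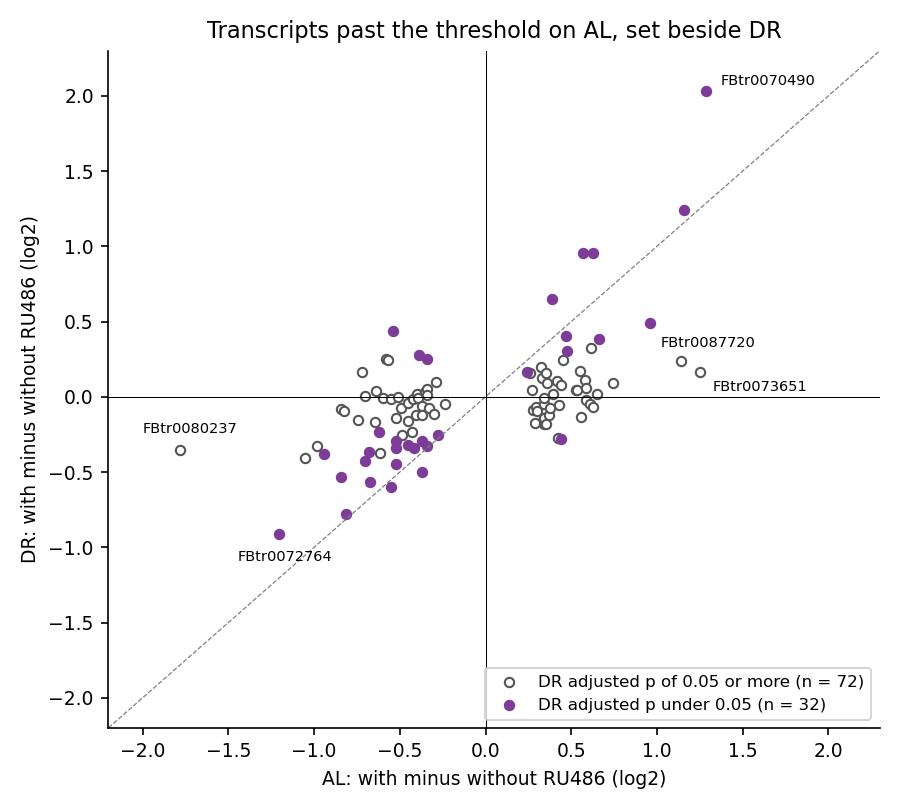
RU486 difference on AL (horizontal axis, log2) and on DR (vertical axis, log2) for the 104 transcripts past the threshold on AL. Filled points, 32 of them, also passed on DR, and the dashed line marks equal differences. Of the 104, 73 lie in the quadrants of equal sign, and FBtr0070490 lies highest.

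The 5 transcripts were not all alike in how their AL and DR differences compared. FBtr0070490 rose more on DR: its lowest, median and highest pools were 10.61, 10.96 and 11.19 log2 in DR flies with RU486, against 8.71, 8.92 and 9.03 log2 in DR flies without. No pools overlapped, the DR rise was 2.03 ± 0.07 log2 (SE; limma adjusted p = 3.27e-16), and the AL effect minus the DR effect was -0.74 ± 0.10 (adjusted p = 0.000646). FBtr0073651 was above background on none of the 12 DR arrays, with values of 6.98 to 7.35 log2 with RU486 and 6.88 to 7.06 log2 without, so its rise was measurable on AL only. FBtr0087720 was near background on DR, above it on 5 of 6 arrays with RU486 and 4 of 6 without. Its DR difference was 0.24 ± 0.18 log2 (adjusted p = 0.390), and the AL effect minus the DR effect was 0.91 ± 0.25 (adjusted p = 0.0298). Leaving out DR pool 4 with RU486, which was highest at 8.64 log2, gave 0.07 ± 0.15 on DR (adjusted p = 0.811) and 1.08 ± 0.21 between the diets (adjusted p = 0.00665). The call between the diets was lost without AL pool 4 with RU486 (adjusted p = 0.05004), without AL pool 1 without RU486 (0.0567) and without AL pool 4 without RU486 (0.0557).

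FBtr0080237 remained bright on DR. Its lowest, median and highest pools were 8.81, 9.14 and 9.82 log2 in DR flies with RU486, against 8.87, 9.65 and 10.00 log2 in DR flies without. These groups overlapped, the DR difference was -0.35 ± 0.16 log2 (SE; limma adjusted p = 0.134), and the fitted AL effect minus the DR effect was -1.43 ± 0.22 (adjusted p = 0.00191). Since AL with RU486 has only an upper bound, group means put the fall on AL at least 1.12 log2 beyond the DR difference. This bound leaves out sampling error. FBtr0072764 fell on both diets, with 7.22, 8.53 and 8.91 log2 as lowest, median and highest in DR flies with RU486, against 8.69, 9.40 and 9.66 log2 in DR flies without. The fall on DR was -0.91 ± 0.20 log2 (adjusted p = 0.00491). It was -0.68 ± 0.14 (adjusted p = 0.00309) without DR pool 1 with RU486, whose 7.22 log2 was below background while the other 5 pools had 8.48 to 8.91 log2. For FBtr0072764 the fitted AL effect minus the DR effect was -0.29 ± 0.28 log2 (SE; limma adjusted p = 0.560). Without DR pool 1 with RU486 it was -0.52 ± 0.20 (adjusted p = 0.0869), and neither value passed the threshold. The fall on AL is only a bound, so these fits do not settle whether the sizes differ between the diets.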

How the data were processed

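The authors deposited 1 log2 brightness value per probe and array, a base taken from the range of 6.09 to 16.51, with 0 missing values among 137090 probes. The submitters' processing notes name limma without a version. How background was corrected and arrays were normalized, and the genome build of the array design, are not given in the sources used here. No coordinates are printed. A slide or date was not given either, and could not be entered as a batch. Per the labels' protocols, samples of all groups were extracted, amplified and labelled in randomized order.

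The 4091 random probes were left out of transcript values, and the other 132999 probes were averaged over the first 11 characters of their identifiers. The values were used as deposited. Group means over all 24 arrays were estimated by lmFit and eBayes of limma 3.58.1 (R 4.3.3), with Benjamini-Hochberg adjustment over 16637 transcripts and a threshold of 0.05. Single values per array were compared by exact permutation tests with scipy 1.17.1, whose smallest possible p is 0.0022. Figures used matplotlib 3.10.9.

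Transcripts given by identifier are, for each of the 2 fits, the 2 highest and 2 lowest differences among calls with a mean level above the 25th percentile. Transcripts with 1 gene symbol are described whatever their value. The comparison, the rule and the gene lists were chosen with earlier results of these data known. On simulated data for RU486 on AL, with changes added to 200 of 16637 transcripts, the fit recovered 86 of 100 changes of 0.5 log2 and 98 of 100 of 1 log2, with 9 false calls. Without pool 1 it recovered 83 and 96, with 12 false calls. These counts belong to the simulated arrays only. Whether they carry over to the measured arrays, where AL pool 1 with RU486 stood apart, was not tested. Other normalizations, filters, probe summaries, array weights and array sets were tried, and the closing section gives their effect.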

Additional observations from a re-analysis of the deposited data

Results flagged for a closer look

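In 64 groups of 6 arrays, 12 held a highest or lowest value beyond Dixon's critical value, where chance gives about 1 in 20. Of these, 9 concern AL pool 1 with RU486. Across all transcripts its SD from the group mean was 0.365, its correlation with the other pools 0.971, and its last 2 probes exceeded the first 2 by 0.40 log2. Among the transcripts with a symbol, this pool was lowest for His4r at 13.02, and highest for Wdr24 at 10.75, fend at 11.73, kis at 12.76, mio at 10.23 and sle at 12.77 log2. His4r was also highest in AL pool 6 without RU486, at 13.85 log2. FBtr0087720 was highest in DR pool 4 with RU486, at 8.64 log2, and FBtr0072764 was lowest in DR pool 1 with RU486, at 7.22 log2.

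The RU486 effect on AL minus that on DR passed the limma threshold for 4 of the 5 transcripts given by identifier. It was -0.74 log2 for FBtr0070490. For FBtr0080237 the fitted value was -1.43. With its AL level under RU486 taken as an upper bound, group means put the fall on AL at least 1.12 log2 beyond that on DR. The effect on AL minus that on DR was 0.91 for FBtr0087720. Its call was lost when any 1 of 3 AL arrays was left out (limma adjusted p = 0.05004, 0.0557 and 0.0567). For FBtr0073651 it was 1.09 (adjusted p = 0.0132), but none of the 12 DR arrays had this transcript above background, and its DR effect was not measured.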

How the results depend on the processing

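The count of 104 transcripts on AL stayed within 1.5 times under 20 of 24 settings. It was 159 without both arrays that stand apart (AL pool 1 and DR pool 3 with RU486), 342 with array weights and 33 with a fold change of at least 1.5. The remaining setting tested single probes and counts probes: 264 of 132999 passed, in 127 transcripts. Without AL pool 1 with RU486 the count of 116 became 243 in the 11 remaining AL arrays alone. Single probes then gave 318 probes of 132999, a setting chosen after seeing the data. Leaving out 1 AL array at a time gave 73 to 116, and 62 of the 104 passed in every such fit. The 12 AL arrays alone gave 106 calls, 73 of them among the 104. The median over probes gave 85, with 69 of the 104. Pool numbers did not pair the samples: same-numbered AL arrays with and without RU486 correlated at -0.22 to 0.10 in their deviations, 0 of 6 over 0.1. With the pool number as a replicate block 88 transcripts passed, 83 of them among the 104, and 108 passed without pool 1. The number above background differed by 7.17 per array at the 99th percentile of random sets, against -102 at the 95th. The 5 transcripts given by identifier kept sign and call in all 110 alternatives, and their AL minus DR difference in 102 of 105. For the transcripts with a symbol, 0 of 351 alternatives passed and 44 had the other sign. Of the 104 calls, 73 had the same direction on DR, and 70 to 72 did under 4 added settings. Brightness near background limits what can be measured: 2016 transcripts were above background on 0 of 12 AL arrays.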

Other observations

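On AL, 6 pairs of called transcripts carry consecutive FlyBase transcript numbers, 11 transcripts in all, and all 6 pairs have the same direction. Whether their probes or genes overlap was not tested.

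FBtr0073651 was highest in pools 4, 3, 1 and 2, in that order, and lowest in pools 5 and 6, both with and without RU486, a detail picked out after its values were seen. The difference between same-numbered AL pools with and without RU486 was 1.43, 0.95, 1.39, 1.34, 1.27 and 1.14 log2, while its pools spanned 9.85 to 11.09 log2 with RU486 and 8.61 to 9.76 log2 without. The labels do not say what a pool number shares, and over all transcripts the numbers did not pair the arrays.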
